A study of Sus scrofa with 36 samples.

Results

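The infarct zone of the newborn pig heart was compared with the left ventricle of sham-operated pigs 1 day after coronary ligation. The comparison takes 3 infarct zone (IZ) libraries of pigs operated on at 2 days of age, called Young, and 3 libraries of sham-operated pigs of the same age. Hearts were taken 1 day after surgery, called Early, so that these pigs were 3 days old. Together they make 6 of the 36 libraries of the series. Of the 25880 genes in the count table, 14537 passed a count filter over all 36 libraries and were tested. A tested gene can thus have few or no reads in these 6 libraries, and the filter on these 6 alone kept 13007 genes.

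All pigs were of the Yorkshire-landrace breed, and no transgene or other genetic change is labelled. In the infarct pigs, branches of the left anterior descending and left circumflex arteries were tied permanently, and per the labels the infarct then covered 15 to 20% of the left ventricular wall. Sham pigs had the operation without ligation, and their sample came from the anterior wall of the left ventricle. Both groups received ketoprofen, an anti-inflammatory painkiller, and the antibiotic enrofloxacin. Each IZ piece of 50 to 80 mg was whole tissue, so heart muscle, connective tissue, vessels and blood cells were measured together. Each of these 3 infarct pigs also gave a border zone (BZ) library, and the series holds the same groups 1 week after surgery (Late) and after surgery at 14 days of age (Old), which serve below to show where the Young Early IZ differs. The design asks how newborn heart muscle responds to an infarct in the days after birth and whether that response changes with age and time.

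As background, heart muscle in a tied artery's territory loses its oxygen supply, and many of its cells die within hours. Injured and dying cells release signals that draw neutrophils and then monocytes into the tissue, while surviving cells fold damaged proteins, switch their fuel use and lay down a provisional matrix. In the first days of life, mammalian heart muscle cells still hold some capacity to divide, which they lose soon afterwards, and they are changing at the same time from glycolysis to the oxidation of fatty acids.

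Levels are given as CPM (counts per 1e6 counts of a library, scaled by the trimmed mean of M-values, TMM), which compare a gene between libraries but not genes with each other. Changes are log2 fold changes of IZ over sham ± the standard error (SE) of edgeR's quasi-likelihood fit with n = 3 pigs per group, so that 1 unit is a doubling. A gene rose or fell where its Benjamini-Hochberg adjusted p over the 14537 genes was under 0.05, and each adjusted p printed for a gene comes from that edgeR test. CPM values are listed in the order of replicates 1, 2 and 3, which only name the pigs. Genes are named by a rule given with the methods, and where 5 or fewer members of a list rose or fell, some were named after their values were seen.

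The 6 libraries held 21.4 to 29.4 M counts, and all were prepared in library batch 1. Mitochondrially encoded genes took 27.1 to 44.1% of the sham libraries and 22.3 to 40.8% of the IZ libraries. RNA integrity numbers ran from 6.4 to 6.9 in the sham libraries and from 6.5 to 7.8 in the IZ libraries, and IZ replicates 1 and 3 had the highest values. IZ replicate 2 had the lowest integrity number and the highest mitochondrial share among the 3 IZ libraries. The Y-linked gene EIF1AY had no counts in sham replicates 1 and 2 and IZ replicate 2 and was present in the other 3, so the pigs differed in sex within both groups. The part of RNA integrity, mitochondrial share and sex in the differences below was not tested beyond the fits with RNA integrity as a covariate and without mitochondrial genes.

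Of the 14537 genes, 3956 (27.2%) were called, 15.2% as higher and 12.0% as lower in the IZ. In 3750 of these the 3 IZ libraries lay entirely above or below the 3 sham libraries, against 6716 (46.2%) of all tested genes. The median log2 fold change over all tested genes was 0.08. Rises were larger than falls: 552 called genes rose at least 4-fold and 95 fell at least 4-fold. The call held without each of the 6 libraries in turn for 1782 genes (12.3%), of which 1025 rose and 757 fell. The count of called genes was 2303 without IZ replicate 3 and 2628 without sham replicate 1, and between 2697 and 3892 without any other library of the 6.

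**Figure D1:**
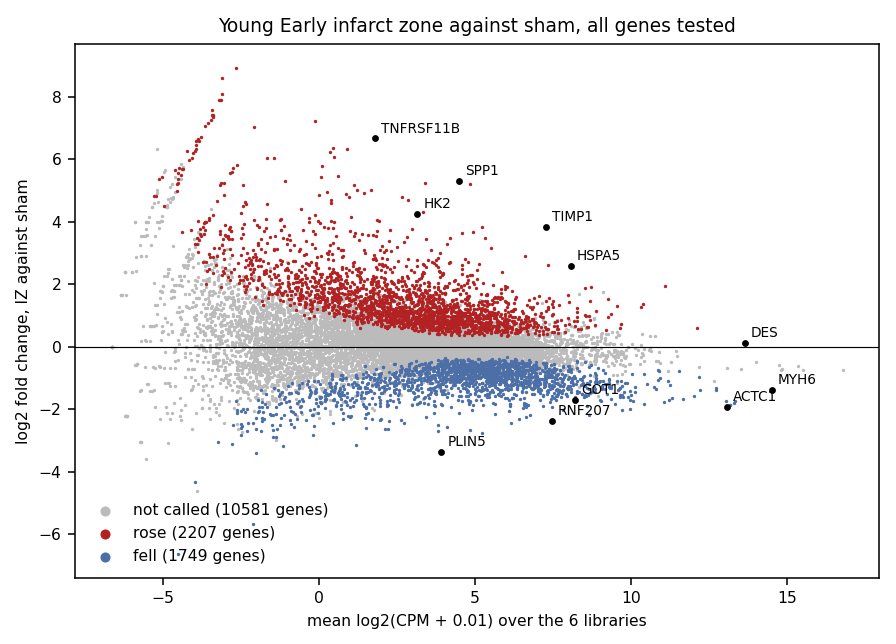
Each point is a gene that passed the count filter, with its mean log2 CPM over the 6 libraries on the horizontal axis and its log2 fold change of IZ over sham on the vertical axis. Coloured points are the 2207 genes that rose and the 1749 that fell, and the scatter of large changes reaches further above 0 than below it.

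TNFRSF11B, which encodes the secreted decoy receptor osteoprotegerin, was at 42.1, 35.7 and 31.2 CPM in the 3 IZ libraries against 0.457, 0.368 and 0.206 in the 3 sham libraries. Its lowest IZ library was far above its highest sham library, and the log2 fold change was 6.67 ± 0.87 (adjusted p = 9.08e-06). The gene is on chromosome 4, from 19869584 to 19878269 in the coordinates of the deposited table, whose genome build is not given in the sources used here. CDA, a cytidine deaminase of nucleotide salvage, rose by 4.93 ± 0.68 on the log2 scale, and MT1X, a metal-binding metallothionein, by 4.81 ± 0.69. The rule that named these 3 genes among the largest rises required all 3 IZ libraries to lie above all 3 sham libraries. The call held without each library in turn.

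Among the genes with the largest falls were several with a known place in heart muscle or mitochondria. RNF207, a ubiquitin ligase of heart muscle that acts on the KCNH2 potassium channel, had 388, 369 and 467 CPM in the sham libraries and 108, 70.1 and 59.6 in the IZ libraries, which is a fall of 2.36 ± 0.30 on the log2 scale (adjusted p = 7.85e-06). TOP1MT, the topoisomerase of mitochondrial DNA, fell by 2.52 ± 0.55, and MTARC2, a reductase of the outer mitochondrial membrane, fell by 2.66 ± 0.62. DHRS7C, an enzyme of the sarcoplasmic reticulum, fell by 2.43 ± 0.62, with 153, 159 and 193 CPM in the sham libraries and 31.7, 38.6 and 23.8 in the IZ libraries. SLC38A3, a glutamine transporter, and the lipid transporters ABCA6 and ABCA8 fell by 2.36 ± 0.38, 2.44 ± 0.43 and 2.65 ± 0.46. In all of these the IZ libraries lay below the sham libraries with no overlap, which the rule that named them required.

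Most tested genes of protein folding in the endoplasmic reticulum rose. The unfolded protein response raises the chaperones and degradation factors of this compartment when proteins misfold there. Of 37 such genes tested, 32 rose, 0 fell and 5 were not called. Their median log2 fold change was 1.20, beside 0.08 over all genes, and the number called was between 28 and 32 without 1 library. HSPA5, the main chaperone of the compartment, stood at 618, 953 and 491 CPM in the 3 IZ libraries against 112, 143 and 86.5 in the 3 sham libraries (log2 fold change 2.60 ± 0.25, adjusted p = 3.17e-07). Every IZ library had several times the sham level. CRELD2, a secreted folding factor, was at 40.3, 56.6 and 31.2 CPM in the IZ and 9.87, 10.8 and 8.66 in the sham hearts, and EDEM1, which sends misfolded glycoproteins to degradation, was at 41.3, 39.3 and 29.6 against 8.56, 8.83 and 9.35. ERO1B, an oxidase that forms disulfide bonds, rose by 1.87 ± 0.32 on the log2 scale. SYVN1, a ubiquitin ligase of the same pathway, had overlapping groups, with 337, 541 and 289 CPM in the IZ and 506, 428 and 453 in sham, with a log2 fold change of -0.25 ± 0.29 (adjusted p = 0.556).

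The integrated stress response, in which the factor ATF4 raises amino acid synthesis and tRNA charging, moved in fewer of its members. Of 39 tested, 15 rose, 0 fell and 24 were not called, with a median of 0.60. MTHFD1L, an enzyme of mitochondrial folate metabolism, was at 6.5, 8.32 and 8.58 CPM in the 3 IZ libraries against 1.03, 0.998 and 0.894 in the 3 sham libraries (log2 fold change 2.99 ± 0.33, adjusted p = 7.18e-07). PYCR1, the last step of proline synthesis, rose by 2.06 ± 0.46, SESN2, a stress sensor of amino acid supply, by 2.81 ± 0.52 and TRIB3, a pseudokinase that damps ATF4, by 2.48 ± 0.60. None of these 4 genes had an IZ library as low as any sham library. PPP1R15A, which restarts translation after stress, was the highest-count member not called, at 131, 356 and 92.8 CPM in the IZ and 244, 110.3 and 94.9 in sham.

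Cytosolic heat shock proteins were divided. Of 24 tested, 11 rose, 1 fell and 12 were not called, and the median was 0.27 (0.16 without sham replicate 3 to 0.44 without sham replicate 2). With RNA integrity as a covariate, 8 rose and 1 fell. HSPH1, a cofactor that releases nucleotide from HSP70, was at 30.6, 34.9 and 39.8 CPM in the 3 IZ libraries against 4.51, 9.51 and 7.22 in the 3 sham libraries, a log2 fold change of 2.31 ± 0.32. HSPB6, a small heat shock protein abundant in muscle, fell by 1.56 ± 0.34, from 1473, 1460.5 and 1342 CPM in sham to 289, 736 and 428 in the IZ. The 3 IZ libraries of HSPB6 were all below the sham libraries, while those of CRYAB, another small heat shock protein of muscle, overlapped them at 1397, 2468 and 1527 against 1533, 1612 and 1127 CPM.

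Many immediate early genes, the first to be transcribed after a stimulus, were higher in the IZ. Of 29 immediate early and AP-1 genes tested, 17 rose, 1 fell and 11 were not called, with a median of 1.09. FOSL1, a subunit of the AP-1 factor, was at 11.6, 25.8 and 6.04 CPM in the 3 IZ libraries against 0.285, 0.525 and 0.344 in the 3 sham libraries (log2 fold change 5.18 ± 0.67, adjusted p = 7.85e-06). FOS, its better known relative, was at 17.1, 18.6 and 6.49 CPM against 0.856, 1.21 and 1.1, and EGR1, a zinc finger factor induced by growth signals, at 27.1, 28.4 and 16.2 against 3.77, 7.3 and 5.78. In all 3 genes the groups were apart. KLF5, a factor of smooth muscle and epithelial remodelling, rose by 4.96 ± 0.67, RUNX1, a factor of blood cell development, by 4.14 ± 0.56 and MYC, which drives growth and ribosome production, by 1.91 ± 0.35. JUN, the partner of FOS, was not called and had lower values in the IZ, at 86.8, 95.2 and 95.2 CPM against 184, 98.7 and 151 (log2 fold change -0.65 ± 0.39, adjusted p = 0.222), and it was called with only the groups compared (adjusted p = 0.0453). The member that fell was NR4A2, an orphan nuclear receptor, by 0.70 ± 0.24, a call lost without IZ replicate 1, IZ replicate 2, IZ replicate 3, sham replicate 1 or sham replicate 3 and with no count filter, with RNA integrity as a covariate and in limma-voom (adjusted p = 0.0534 to 0.162).

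**Figure D2:**
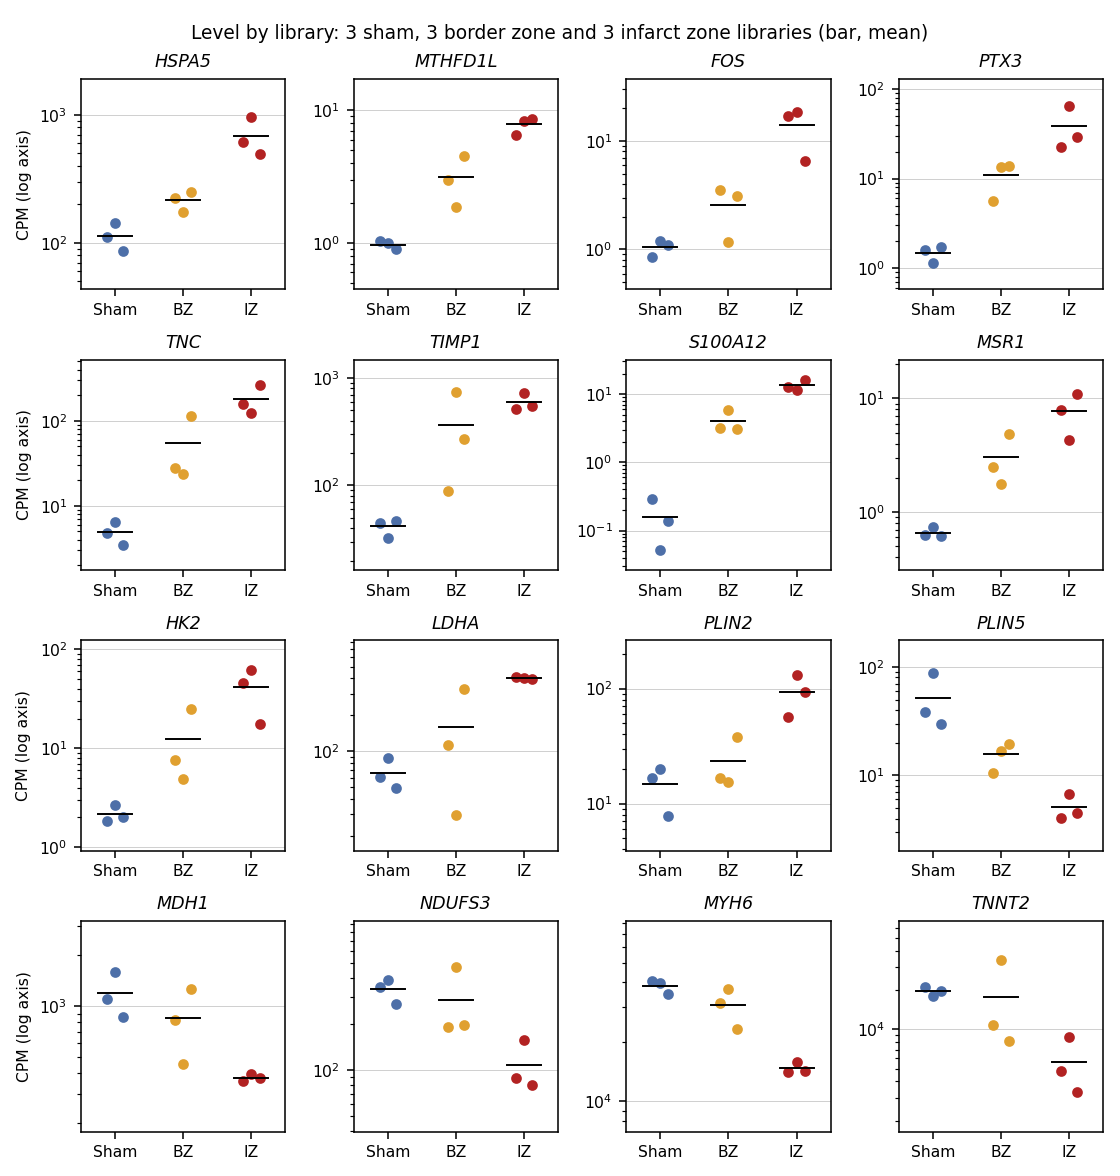
Each panel is a gene, with the CPM of each Young Early library on a log axis, grouped as sham, BZ and IZ, and a bar at the mean of the 3 CPM values. The IZ libraries sit apart from the sham libraries in every panel, and the mean of the BZ libraries, which spread more widely in several genes, lies between the other means.

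Some genes of inflammatory signals rose and few fell. Chemokines are secreted proteins that draw leukocytes, and of 20 tested, 6 rose, 1 fell and 13 were not called, with a median of 0.91. The number called was 4 without sham replicate 1 or sham replicate 3. CCL2, which attracts monocytes, was at 106, 146 and 82.8 CPM in the 3 IZ libraries against 7.59, 9.82 and 8.87 in the 3 sham libraries (log2 fold change 3.67 ± 0.47, adjusted p = 7.81e-06). CXCL14, a chemokine of epithelia and connective tissue, was at 15.6, 37.2 and 6.12 CPM against 0.285, 0.105 and 0.344 (log2 fold change 6.33 ± 1.19). Both genes had IZ libraries many times above any sham library. CCL21, which guides lymphocytes along lymphatic vessels, overlapped between groups at 24.3, 29.6 and 39.1 against 22.8, 43.5 and 62.3 CPM and was not called. The member that fell was CCL26, an attractant of eosinophils, at 0.0619, 0.118 and 0 CPM in the IZ and 1.48, 0.158 and 6.67 in sham.

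Among cytokines and their receptors, of 35 tested, 21 rose, 1 fell and 13 were not called, with a median of 1.32. The members with the largest changes besides TNFRSF11B belong to the interleukin 6 family and to myeloid growth signals. OSMR, the receptor subunit for oncostatin M, was at 20.2, 20.8 and 17.5 CPM in the 3 IZ libraries against 2.85, 1.94 and 3.58 in the 3 sham libraries (log2 fold change 2.81 ± 0.44, adjusted p = 6.28e-05). CLCF1, a ligand of that family, rose by 2.48 ± 0.40, and CSF2RB, the shared receptor subunit for several myeloid growth factors, rose by 2.92 ± 0.62. IL6 itself had no counts in the 3 sham libraries and 29 in the 3 IZ libraries, at least 5.68-fold higher against a floor of 3 counts over the group, and edgeR's call for it was lost without IZ replicate 1, IZ replicate 2, sham replicate 1, sham replicate 2 or sham replicate 3 (adjusted p = 0.0504 to 0.0825). The member that fell was IL11RA, the receptor for interleukin 11, by 1.17 ± 0.24. IL13RA1 was the highest-count member not called, at 125, 109 and 117 CPM against 78.1, 69.9 and 89.2, and it was called with only the groups compared (adjusted p = 0.0216).

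Innate sensors and the feedback genes of NF-kB, the main transcription factor of inflammation, numbered 31 tested. Of these 16 rose, 1 fell and 14 were not called, with a median of 1.08, and the number called was 11 without IZ replicate 1, IZ replicate 3 or sham replicate 2. PTX3, a soluble pattern recognition protein, was at 22.3, 65.1 and 29.3 CPM in the 3 IZ libraries against 1.6, 1.16 and 1.72 in the 3 sham libraries (log2 fold change 4.70 ± 0.63, adjusted p = 1.06e-05). SOCS3, the feedback inhibitor of cytokine signalling through STAT3, was at 29.2, 49.2 and 25.2 CPM against 5.14, 4.78 and 7.01. The bacterial and damage sensors TLR2 and TLR4 rose by 2.19 ± 0.44 and 2.27 ± 0.53 on the log2 scale. These 4 genes had no overlap between groups. SOD2, a mitochondrial dismutase that NF-kB can raise, was not called and was lower in each IZ library, at 154, 156 and 172 CPM against 198, 267 and 209 (adjusted p = 0.148). The member that fell was CISH, another feedback inhibitor of cytokine signals, by 1.33 ± 0.47, a call lost without IZ replicate 1, IZ replicate 3 or sham replicate 3 and with RNA integrity as a covariate (adjusted p = 0.115 to 0.309).

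Some neutrophil and macrophage markers rose, and no lymphocyte marker was called by edgeR as fitted here. In tissue samples such as these, more cells of a type and more RNA per cell cannot be told apart, and the same holds for fewer cells and less RNA. Of 12 neutrophil markers tested, 6 rose, 0 fell and 6 were not called, with a median of 2.29. Of those not called, MMP8 had no counts in any of the 6 libraries. S100A12, a calcium-binding protein abundant in neutrophils, was at 12.8, 11.6 and 16 CPM in the IZ and at 0.285, 0.0525 and 0.138 in the sham hearts (log2 fold change 6.38 ± 0.88, adjusted p = 8.17e-06). Its relative S100A8 was at 6.87, 5.84 and 8.29 against 0.228, 0.105 and 0.138. Both were close to absent from sham tissue. The summed level of the tested neutrophil markers ran from 13 to 17.4 CPM in the sham libraries and from 58.3 to 67.9 CPM in the IZ libraries, with no overlap.

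Of 25 macrophage and monocyte markers tested, 11 rose, 0 fell and 14 were not called, with a median of 0.97, and the number called was 6 without sham replicate 2 and 7 without IZ replicate 3. MSR1, a scavenger receptor, was at 7.92, 4.31 and 10.9 CPM in the 3 IZ libraries against 0.628, 0.735 and 0.619 in the 3 sham libraries (log2 fold change 3.55 ± 0.65, adjusted p = 0.000295). F13A1, the clotting factor subunit that monocytes and macrophages make, rose by 3.05 ± 0.55 and ITGAM, an integrin of myeloid cells, by 2.05 ± 0.42. CD68, a lysosomal protein of macrophages, was at 10.7, 11.6 and 10.2 CPM against 2.97, 2.63 and 3.03, and TREM2, a lipid-sensing receptor, at 4.39, 2.54 and 4.16 against 0.742, 0.158 and 1.17. The groups did not overlap in these 5 genes. C1QB, a complement subunit made by resident macrophages, did overlap, at 26.7, 56.6 and 34.6 CPM in the IZ and 69.2, 37.4 and 58.6 in sham (log2 fold change -0.49 ± 0.41, adjusted p = 0.386). The summed marker level ran from 250.2 to 370.4 CPM in the sham libraries and from 444 to 509 CPM in the IZ libraries, with no overlap.

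None of 17 lymphocyte markers was called by edgeR, with a median of 0.14 (-0.01 without sham replicate 1 to 0.42 without IZ replicate 3). CD79A, a part of the B cell receptor, was at 53.8, 63.1 and 50.3 CPM in the IZ and 63.3, 49.5 and 63.1 in sham. CD3E, a subunit of the T cell receptor complex, was at 0.279, 0.767 and 0.265 CPM in the IZ and 0.171, 0.525 and 0.344 in sham, low in every library. At an unadjusted p under 0.05, 1 of the list was past the threshold. In DESeq2, in edgeR with DESeq2's size factors and in legacy edgeR 1 was called, as lower, and 1 was called without sham replicate 1 or sham replicate 2. Of 33 interferon response genes tested, 1 rose, 0 fell and 32 were not called, with a median of 0.24 (0.07 without sham replicate 2 to 0.30 without IZ replicate 1). The gene called was IFIT5, a member of a family induced by interferon, which rose by 1.27 ± 0.32 (adjusted p = 0.00461).

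Matricellular proteins, which signal to cells in a healing wound more than they hold tissue together, rose in most tested members. Of 27 provisional and matricellular genes tested, 18 rose, 3 fell and 6 were not called, with a median of 2.07. TNC, the glycoprotein tenascin C of developing and injured tissue, was at 159.6, 124 and 263 CPM in the IZ against 4.85, 6.41 and 3.51. SPP1, the cytokine-like protein osteopontin, was at 118, 87 and 247 against 3.82, 3.62 and 3.85. IZ replicates differed several-fold in SPP1, and the lowest was still above every sham library. THBS1, an activator of transforming growth factor beta, was at 85.7, 53.5 and 124 against 8.05, 5.78 and 7.22 CPM (log2 fold change 3.65 ± 0.70, adjusted p = 0.00045). POSTN, the fibroblast product periostin, was at 94.1, 93.9 and 266 against 22.6, 11.5 and 6.4 (log2 fold change 3.48 ± 0.61). ITGA5, the integrin subunit that binds fibronectin, was not called, at 796, 943 and 990.2 CPM against 758, 635 and 709.7 (adjusted p = 0.168). The 3 that fell were VTN, a plasma protein that binds integrins, by 1.73 ± 0.27, the SPARC relative SPARCL1 by 0.98 ± 0.37, lost without IZ replicate 1, IZ replicate 2, sham replicate 1, sham replicate 2 or sham replicate 3 and with no count filter, in legacy edgeR, with RNA integrity as a covariate, with batch as a term, with mitochondrial genes left out and in limma-voom (adjusted p = 0.0517 to 0.17), and FGL2, a prothrombin-cleaving protein, by 0.59 ± 0.21, lost without IZ replicate 1, IZ replicate 2, IZ replicate 3, sham replicate 1 or sham replicate 2 and with no count filter, with RNA integrity as a covariate and in limma-voom (adjusted p = 0.0635 to 0.137).

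Of 43 genes for collagens and their assembly, 18 rose, 2 fell and 23 were not called, with a median of 0.70, and the number called was 13 without IZ replicate 3. Enzymes that modify collagen were among the largest changes. LOXL4, which cross-links fibres, was at 20.6, 30.2 and 22.3 CPM in the 3 IZ libraries against 2.11, 1.52 and 2.82 in the 3 sham libraries (log2 fold change 3.51 ± 0.37, adjusted p = 6.02e-07). P4HA1 and PLOD2, which hydroxylate proline and lysine in collagen, rose by 2.34 ± 0.31 and 2.39 ± 0.53 and are also targets of the hypoxia response. COL12A1, a collagen that lies on the fibre surface, rose by 3.12 ± 0.73. The main fibre gene COL1A1 was at 567, 409 and 951 CPM in the IZ and 379, 324 and 329 in sham, without overlap and without a call (log2 fold change 0.90 ± 0.36, adjusted p = 0.0624, and it was called without IZ replicate 2 and with only the groups compared (adjusted p = 0.0289 to 0.0392)). The basement membrane gene COL4A2 was at 919.9, 1151 and 1091 against 1380.3, 1218 and 1167 CPM (adjusted p = 0.419). The 2 that fell belong to elastic fibres, with FBLN5 lower by 0.74 ± 0.20 and MFAP5 by 1.37 ± 0.38, the latter call lost without IZ replicate 1 or IZ replicate 3 (adjusted p = 0.0575 to 0.0619).

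Genes for matrix proteases and their inhibitors rose in 15 of 23 members tested, with a median of 1.94. The member that fell was MMP11, a metalloproteinase of tissue remodelling, by 1.56 ± 0.42, a call lost without IZ replicate 3 (adjusted p = 0.0585). TIMP1, an inhibitor of metalloproteinases, was at 519, 720.3 and 545 CPM in the 3 IZ libraries against 45, 32.5 and 47 in the 3 sham libraries (log2 fold change 3.84 ± 0.64, adjusted p = 0.00012). ADAMTS4, which cuts proteoglycans, was at 17.8, 36.8 and 14.7 against 1.88, 3.26 and 1.44 CPM, and MMP25, a membrane-bound metalloproteinase of leukocytes, at 4.27, 5.73 and 1.59 against 0.342, 0.735 and 0.275. All 3 were separate between the groups. The related inhibitor TIMP3 was not called, at 123, 119 and 157 CPM against 80.8, 93.4 and 101 (adjusted p = 0.147), and it was called with only the groups compared (adjusted p = 0.0387).

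Growth factors and their receptors had a share of called members near the 27.2% of all genes. Of 47 tested, 12 rose, 2 fell and 33 were not called, with a median of 0.54. ANGPT2, which loosens vessels for sprouting, rose by 1.99 ± 0.41 from 3.99, 5.62 and 5.23 CPM in sham to 14.3, 30.3 and 14.6 in the IZ. BMP4, a signal of heart development, rose by 2.04 ± 0.33 and MET, the receptor for hepatocyte growth factor, by 2.13 ± 0.41. VEGFA, the main vessel growth factor and a hypoxia target, overlapped between groups at 224, 168 and 87.4 CPM in the IZ and 148, 185 and 121 in sham (log2 fold change 0.08 ± 0.42, adjusted p = 0.91). The 2 that fell were FGF1, a fibroblast growth factor, by 1.07 ± 0.24 and VEGFD, a growth factor of lymphatic vessels, by 1.32 ± 0.32.

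Cytoskeletal, S100 and annexin genes rose in 16 of 35 tested, with 0 that fell and a median of 0.87. S100A6, a calcium-binding protein of dividing and migrating cells, was at 193, 119 and 125 CPM in the 3 IZ libraries against 12.7, 7.72 and 9.9 in the 3 sham libraries (log2 fold change 3.85 ± 0.54, adjusted p = 1.73e-05). ACTN1, the actinin of non-muscle cells, was at 104, 55.8 and 137 against 26.9, 25.5 and 23.4 CPM, with IZ replicate 2 the lowest of the IZ. It rose by 1.97 ± 0.51 on the log2 scale. The tubulin gene TUBB overlapped between groups, at 1453, 1889.7 and 1370.3 against 1811, 1721 and 1306 CPM.

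The hypoxia response, which restores oxygen supply and shifts cells to glycolysis, rose in part. Of 26 hypoxia genes tested, 13 rose, 0 fell and 13 were not called, with a median of 0.68, and the number called was 7 without IZ replicate 2 and 8 without sham replicate 1, IZ replicate 1 or sham replicate 3. ANKRD37, a target of the hypoxia-inducible factor, was at 6.47, 12.3 and 2.97 CPM in the IZ against 1.65, 1.26 and 2.48 (log2 fold change 2.00 ± 0.40, adjusted p = 0.000713). TXNIP, which lowers glucose uptake, was at 297, 536 and 764 against 1098, 876 and 1581 CPM, lower in each IZ library but not called (adjusted p = 0.0548), and it was called without IZ replicate 3 and with DESeq2's size factors, with only the groups compared, in DESeq2 and in limma-voom (adjusted p = 0.0296 to 0.0481).

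Of 32 genes for glycolysis and glucose transport, 7 rose, 11 fell and 14 were not called, with a median of -0.41. Genes that feed or end glycolysis were among those that rose. HK2, the hexokinase that binds mitochondria, was at 45.9, 62 and 17.8 CPM in the 3 IZ libraries against 1.83, 2.68 and 1.99 in the 3 sham libraries (log2 fold change 4.26 ± 0.72, adjusted p = 0.000139). PFKFB3, which makes the activator of phosphofructokinase, was at 51.3, 49.7 and 14.9 against 2.91, 3.41 and 4.33 CPM. LDHA, which turns pyruvate into lactate, was at 414, 401 and 396 against 61.2, 88 and 49.3 and ENO1, a glycolytic enolase of many tissues, at 713, 1117 and 671 against 267, 229.8 and 170.3. Each IZ library exceeded every sham library in these 4 genes. GAPDH, the enzyme in the middle of the pathway, was at 5894, 9463 and 5484 against 11464, 11352 and 10716 CPM, lower in each IZ library without a call (adjusted p = 0.0978), and it was called without IZ replicate 2 (adjusted p = 0.0369). The 11 that fell include isoforms specific to muscle, which were chosen after their values were seen: ENO3, the muscle enolase, fell by 1.30 ± 0.38, a call lost without IZ replicate 3 (adjusted p = 0.0652), and PYGM, the muscle glycogen phosphorylase, by 1.59 ± 0.28.

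Most tested genes of oxidative metabolism fell. Heart muscle cells hold most of the mitochondria of this tissue, and of 12 cardiomyocyte markers tested, 0 rose, 9 fell and 3 were not called, with a median of -1.68 and a summed level that ran from 112609 to 134533 CPM in the sham libraries and from 32486 to 53443 CPM in the IZ libraries. Their part in the falls below was not tested. Of 56 nuclear genes for the respiratory chain and ATP synthase, 0 rose, 53 fell and 3 were not called, with a median of -1.27. The number called was 27 without IZ replicate 3 and 35 without IZ replicate 1, and with RNA integrity as a covariate 48 fell. NDUFS3, a core subunit of complex I, was at 89.4, 157 and 79.6 CPM in the 3 IZ libraries against 350.2, 387 and 273 in the 3 sham libraries (log2 fold change -1.64 ± 0.31, adjusted p = 0.000392). UQCR10, a small subunit of complex III, fell by 1.61 ± 0.41, from 558, 593 and 475 CPM in sham to 133, 282 and 117 in the IZ. The groups were apart in both. UQCR11, another small subunit of that complex, was also lower in every IZ library, at 171, 329.6 and 146 CPM against 527, 504 and 549, and was not called (adjusted p = 0.0606), and it was called without IZ replicate 2 and with only the groups compared, in DESeq2 and in limma-voom (adjusted p = 0.0111 to 0.0382).

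The 13 protein genes of the mitochondrial genome, which encode the remaining respiratory subunits, had a median of -0.72 (-1.32 without IZ replicate 2 to -0.35 without sham replicate 3), and 1 was called. That gene was ND3, which fell by 0.96 ± 0.36 (adjusted p = 0.0467) with a call lost without IZ replicate 1, IZ replicate 3, sham replicate 1 or sham replicate 3 and with no count filter, with only the groups compared and with RNA integrity as a covariate (adjusted p = 0.0551 to 0.246). Without IZ replicate 2, 6 of the 13 were called, and without sham replicates 1 or 3 or IZ replicates 1 or 3 none was. COX1, the catalytic subunit of cytochrome oxidase, overlapped between groups, at 60257, 179548 and 49517 CPM in the IZ and 137115, 134023 and 215779 in sham, and it was called without IZ replicate 2 (adjusted p = 0.0016). IZ replicate 2 had the highest of the IZ values. Genes for mitochondrial ribosomes and protein import fell in 8 of 43, beside 12.0% of all genes, with a median of -0.44. The number called was 2 without IZ replicate 1, 3 without IZ replicate 3 or sham replicate 2 and 4 without sham replicate 1. MRPL34, a subunit of the large mitochondrial ribosome, fell by 0.88 ± 0.21 (adjusted p = 0.00303), while the mitochondrial HSP70 gene HSPA9 was at 264, 302 and 261 against 308, 372 and 265 CPM and was not called.

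In a list of enzymes of the citric acid cycle and of amino acid oxidation, 33 of 44 members fell, none rose, and the median was -1.03. The list also holds the creatine kinases CKM and CKMT2. MDH1, the cytosolic malate dehydrogenase of the shuttle that carries reducing power into mitochondria, was at 358, 392 and 374 CPM in the IZ and 1096, 1606 and 863 in sham (log2 fold change -1.66 ± 0.27, adjusted p = 9.93e-05). GOT1, the transaminase of the same shuttle, was at 159, 160.4 and 181 against 508, 616 and 494. These kinases, also counted as cardiomyocyte markers, pass energy from mitochondria to the contractile fibres, and CKM and CKMT2 fell by 1.77 ± 0.43 and 1.75 ± 0.29. In none of these did an IZ library reach the sham range. DLD, the dehydrogenase shared by several complexes of mitochondria, overlapped at 114, 68.9 and 113 against 109, 187 and 117 CPM.

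Of 36 genes for fatty acid oxidation and lipid droplets, 1 rose, 24 fell and 11 were not called, with a median of -1.16. PLIN5, which ties lipid droplets to mitochondria, was at 4.02, 6.79 and 4.5 CPM in the IZ and 38.1, 88 and 30.1 in sham. DGAT2, an enzyme of triglyceride synthesis, fell by 1.94 ± 0.47. The member that rose was PLIN2, the droplet coat protein of most cell types, at 56.6, 131 and 93.1 CPM in the 3 IZ libraries against 16.5, 19.9 and 7.77 in the 3 sham libraries (log2 fold change 2.66 ± 0.47, adjusted p = 0.000217). The 2 perilipins moved in opposite directions with no overlap in either. The lipoprotein lipase gene LPL and the fatty acid carrier FABP4, which are also adipocyte markers, fell by 1.24 ± 0.27 and 1.44 ± 0.36.

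**Figure D3:**
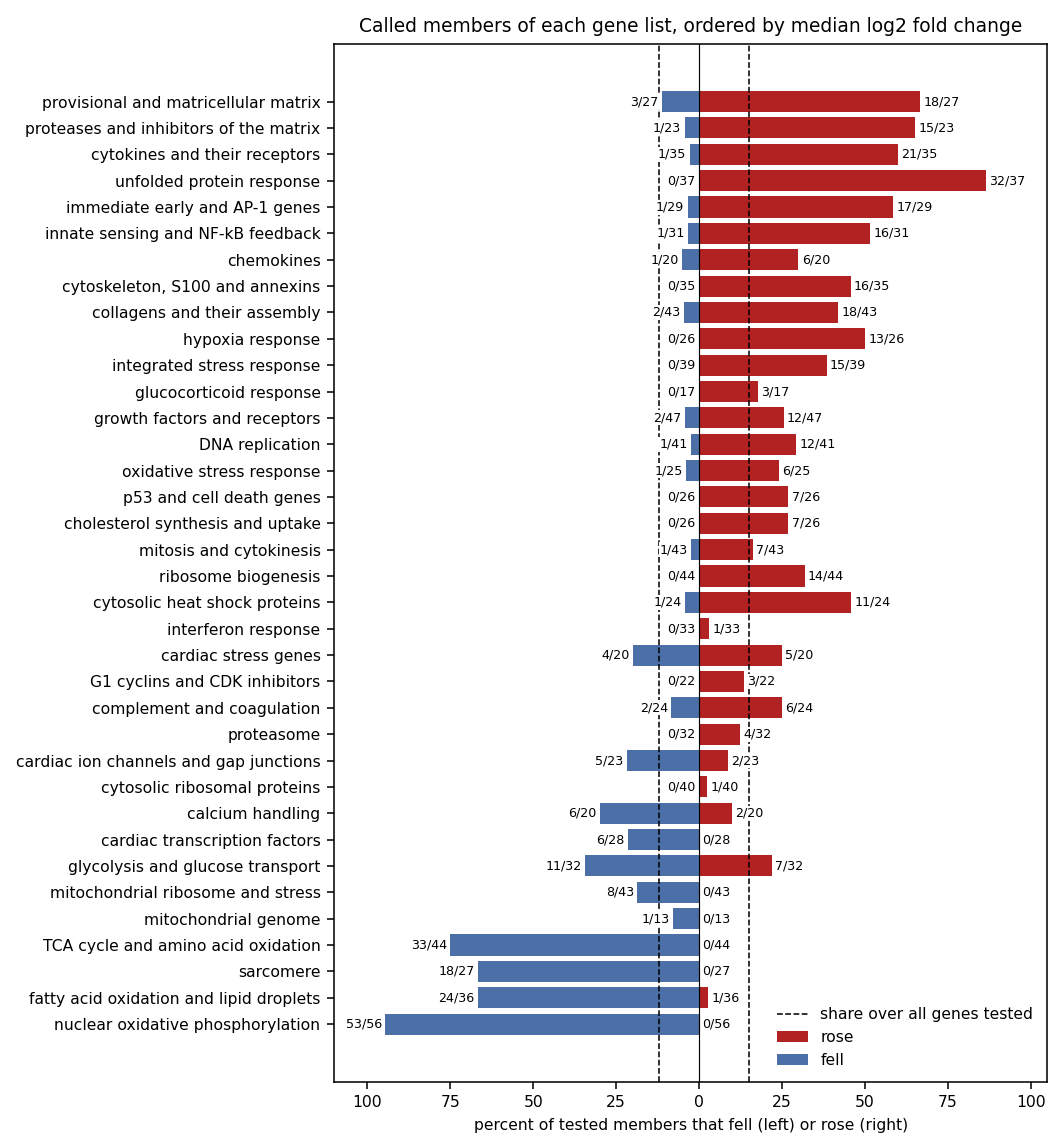
Each row is a gene list with the percent of its tested members that rose (to the right) and fell (to the left) in IZ against sham, and the dashed lines mark the 15.2% that rose and the 12.0% that fell among all genes. Lists of the unfolded protein response, cytokines and matrix stand far to the right, and those of oxidative phosphorylation, the citric acid cycle and the sarcomere far to the left.

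Contractile genes fell in most tested members. Of 27 sarcomere genes tested, 0 rose, 18 fell and 9 were not called, with a median of -1.13. MYH6, the alpha myosin heavy chain, was at 14092, 15769 and 14286 CPM in the 3 IZ libraries against 40836, 39499 and 34973 in the 3 sham libraries (log2 fold change -1.39 ± 0.24, adjusted p = 0.000196). TNNT2, the troponin that anchors the complex to tropomyosin, was at 4752, 8781 and 3292 CPM against 21103, 18144 and 19549 and MYL2, the ventricular regulatory light chain, at 5148, 8804 and 3733 against 20412, 21778 and 16776. All IZ libraries were below all sham libraries in these 3. DES, the intermediate filament that links muscle fibrils, overlapped at 14986, 14630.0 and 11834 against 16236, 13153 and 8694 CPM (log2 fold change 0.12 ± 0.31, adjusted p = 0.8). No skeletal muscle marker rose, and of 8 tested, 0 rose, 2 fell and 6 were not called, a share called near the 27.2% of all genes.

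Calcium handling genes moved in both directions. Of 20 genes tested, 2 rose, 6 fell and 12 were not called, with a median of -0.26 (-0.51 without IZ replicate 3 to 0.14 without IZ replicate 2), and the number called was 5 without IZ replicate 1. With RNA integrity as a covariate the median was -0.71. HRC, a calcium-binding protein inside the sarcoplasmic reticulum, was at 228, 266 and 246 CPM in the 3 IZ libraries against 660.1, 745 and 657 in the 3 sham libraries (log2 fold change -1.48 ± 0.25, adjusted p = 0.00012). TRDN and CASQ1, which hold calcium near its release channel, fell by 1.30 ± 0.28 and 1.36 ± 0.30, and the kinase CAMK2A fell by 1.31 ± 0.27. ATP2A2, the pump that refills the store, had 959.9, 334 and 1115 CPM in the IZ and 912, 1196 and 702 in sham. IZ replicate 2 was below all sham libraries and the other IZ libraries were not, so the groups overlapped and the gene was not called (adjusted p = 0.755). The 2 that rose were the plasma membrane calcium pumps ATP2B1, by 1.11 ± 0.39 and lost without IZ replicate 1, IZ replicate 3, sham replicate 1, sham replicate 2 or sham replicate 3 and with RNA integrity as a covariate and in limma-voom (adjusted p = 0.055 to 0.129), and ATP2B4, by 0.87 ± 0.23 and lost without IZ replicate 1 (adjusted p = 0.0751).

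Of 23 cardiac channel and gap junction genes, 2 rose, 5 fell and 16 were not called, a share called near the 27.2% of all genes. The number called was 4 without sham replicate 2. KCNH2, which carries the rapid repolarising current, was at 69.4, 80.2 and 72.4 CPM against 238, 142 and 188 (log2 fold change -1.36 ± 0.23, adjusted p = 0.000158). KCNJ5, a channel opened by acetylcholine, fell by 1.96 ± 0.53 and KCNIP2, a subunit of the transient outward current, by 1.59 ± 0.40. Of the 2 that rose, GJC1, the gap junction protein connexin 45, changed by 0.66 ± 0.20, a call lost without sham replicate 2 (adjusted p = 0.0882), and the potassium channel gene KCND2 had no counts in sham and 13 in the IZ, at least 2.54-fold higher against the floor of 3 counts, with edgeR's call lost without IZ replicate 3, sham replicate 1, sham replicate 2 or sham replicate 3 and with RNA integrity as a covariate and in limma-voom (adjusted p = 0.0781 to 0.23).

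Cardiac transcription factors had a share of called members somewhat below the 27.2% of all genes. All of those called fell, beside 12.0% of all genes that fell. Of 28 tested, 0 rose, 6 fell and 22 were not called, with a median of -0.27, and the number called was 2 without IZ replicate 3 and 3 without sham replicate 1. HAND1, a factor of the left ventricle, fell by 1.07 ± 0.25 from 36.5, 48.5 and 41.6 CPM in sham to 21.1, 21.6 and 17.9 in the IZ (adjusted p = 0.00229). GATA4, a zinc finger factor of heart development, was lower in every IZ library without a call, at 111, 81.7 and 95 against 135, 160.0 and 132 CPM (adjusted p = 0.0716), and it was called with only the groups compared and in DESeq2 (adjusted p = 0.0318 to 0.0425). Its relative GATA6 was at 101, 102 and 132 against 150.0, 135 and 193 CPM (adjusted p = 0.0699), and it was called with DESeq2's size factors, with RNA integrity as a covariate and in DESeq2 (adjusted p = 0.0313 to 0.0458). Neither gene overlapped between groups.

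Cardiac stress genes moved in both directions. Of 20 tested, 5 rose, 4 fell and 11 were not called, with a median of 0.17 (-0.09 without IZ replicate 3 to 0.30 without sham replicate 2) that turned to -0.06 with RNA integrity as a covariate. ANKRD1, a stretch-induced protein of the sarcomere and nucleus, was at 3886, 6179 and 3793 CPM in the 3 IZ libraries against 1613, 1438 and 538 in the 3 sham libraries (log2 fold change 1.95 ± 0.35, adjusted p = 0.000279). ANKRD2, its relative, rose by 2.36 ± 0.49 and RCAN1, an inhibitor of calcineurin, by 2.05 ± 0.35. AGT, the precursor of angiotensin, fell by 1.76 ± 0.41. These 4 had no overlap between the groups. The natriuretic peptide gene NPPB, a marker of wall stress, varied widely, at 758, 1317 and 411 CPM in the IZ and 546, 189 and 26.6 in sham, and was not called (adjusted p = 0.0885), and it was called without sham replicate 1 and in limma-voom (adjusted p = 0.019 to 0.0298).

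**Figure D4:**
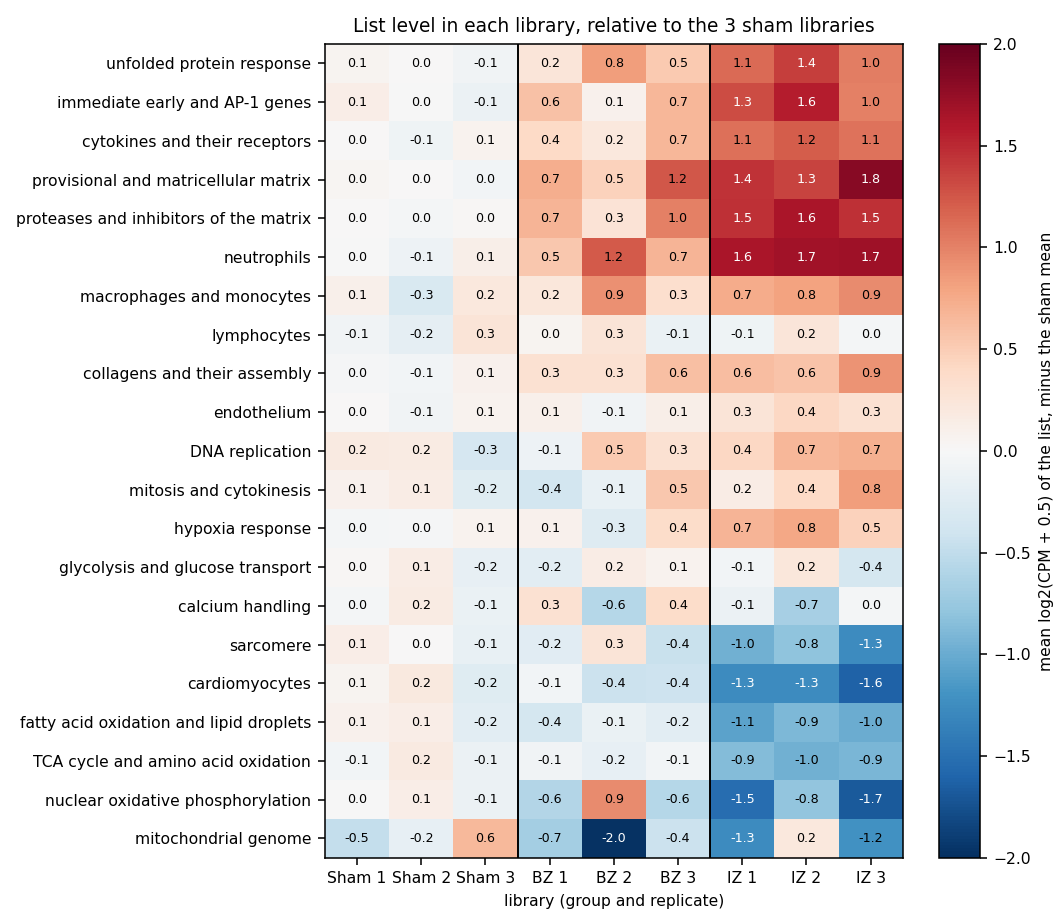
Each row is a gene list and each column a Young Early library, and the colour and the number give the mean of log2(CPM + 0.5) over the list's tested members minus its mean over the 3 sham libraries. The 3 IZ libraries are red for the stress, inflammation and matrix lists and blue for the sarcomere, fatty acid and nuclear oxidative phosphorylation lists, and IZ replicate 2 differs from the other IZ libraries in the mitochondrial genome row.

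Most tested cell cycle genes were not called, and in the mitosis and early cycle lists the share that rose was near the 15.2% of all genes. Of 41 replication genes, 12 rose, 1 fell and 28 were not called, with a median of 0.53, and the number called was 4 without sham replicate 3 and 7 without IZ replicate 3. MCM6, a subunit of the replicative helicase, was at 24.8, 18.3 and 34.4 CPM against 6.85, 8.14 and 5.5, and ORC1, which marks origins, at 5.57, 7.67 and 8.21 against 2.23, 3.2 and 1.1 (log2 fold change 1.69 ± 0.45, adjusted p = 0.00707). Both had every IZ library above sham. MCM7, another helicase subunit, was above sham in each IZ library and was not called, at 44.2, 64.9 and 52.8 against 42.4, 30.9 and 38.8 CPM. The replication gene that fell was CDC7, an origin-firing kinase, by 0.73 ± 0.21, a call lost without IZ replicate 2 (adjusted p = 0.0518).

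Of 43 genes for mitosis and cytokinesis, 7 rose, 1 fell and 35 were not called, with a median of 0.48 (0.27 without IZ replicate 3 to 0.64 without IZ replicate 1), and the number called was 2 without sham replicate 1 or IZ replicate 3 and 3 without sham replicate 3. TOP2A, which untangles chromosomes, was at 18.4, 13 and 30.5 CPM in the IZ and 12.6, 12.7 and 9.35 in sham (adjusted p = 0.0989), and it was called without IZ replicate 2 (adjusted p = 0.0486). CDK1, the kinase that starts mitosis, was at 8.48, 11 and 13 against 6.45, 8.25 and 5.23 (adjusted p = 0.278). Both were above sham in each IZ library, and neither was called. The mitotic gene that fell was CDC25B, the phosphatase that activates that kinase, by 0.76 ± 0.24, a call lost without IZ replicate 1, IZ replicate 2 or sham replicate 1 (adjusted p = 0.0622 to 0.102). Of 22 genes for the start of the cycle, 3 rose, 0 fell and 19 were not called, and the number called was 1 without sham replicate 1, IZ replicate 3 or sham replicate 3. MYC is among those that rose, whereas the cyclin gene CCND1 overlapped at 79.6, 118 and 64.5 CPM in the IZ and 80.6, 101 and 48.8 in sham, and CCND2 at 118, 154 and 74.8 against 99.6, 89.4 and 124.

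Genes that build ribosomes rose in 14 of 44 members (5 of them by at least 1 on the log2 scale), none fell, and the median was 0.43 (0.24 without IZ replicate 2 to 0.52 without IZ replicate 1). NPM3, a nucleolar chaperone, was at 26.1, 38.4 and 35.8 CPM in the 3 IZ libraries against 6.45, 5.73 and 6.46 in the 3 sham libraries (log2 fold change 2.43 ± 0.47, adjusted p = 0.000529). LYAR, a nucleolar growth regulator, rose by 1.60 ± 0.28, GAR1, a subunit of the particle that modifies ribosomal RNA, by 1.30 ± 0.29 and DDX21, a nucleolar helicase, by 2.39 ± 0.65. Of 40 genes for proteins of the finished ribosome, 1 rose, 0 fell and 39 were not called, with a median of -0.13 (-0.36 without IZ replicate 2 to -0.02 without IZ replicate 3), and none was called without any 1 of the 6 libraries. RPS2, the member with the most counts, was at 1929, 2635 and 1804 CPM in the IZ and 3295, 2963 and 2584 in sham.

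Lists of oxidative stress, cell death and cholesterol genes had shares of called members near the 27.2% of all genes, nearly all of them rises. Of 25 oxidative stress genes, 6 rose, 1 fell and 18 were not called, and the number called was 4 without sham replicate 1 or sham replicate 3. SRXN1, which restores oxidised peroxiredoxins, was at 35.9, 56.7 and 41.5 CPM in the 3 IZ libraries against 3.88, 9.3 and 3.3 in the 3 sham libraries (log2 fold change 3.01 ± 0.43, adjusted p = 2.5e-05). The member that fell was GPX4, which repairs oxidised lipids, by 1.00 ± 0.35, a call lost without IZ replicate 1, IZ replicate 3, sham replicate 1, sham replicate 2 or sham replicate 3 and with RNA integrity as a covariate (adjusted p = 0.0645 to 0.126). Of 26 genes for p53 signalling and cell death, 7 rose, 0 fell and 19 were not called, and the number called was 3 without sham replicate 3 and 4 without IZ replicate 2 or sham replicate 2. Of 26 genes for cholesterol synthesis and uptake, 7 rose, 0 fell and 19 were not called, and the number called was 3 without IZ replicate 1 and 4 without sham replicate 1 or sham replicate 3. HSD17B7, a step of that synthesis, rose by 2.11 ± 0.31. Of 17 glucocorticoid response genes, 3 rose, a share near the 15.2% of all genes that rose, 0 fell and 14 were not called. Among them CEBPD, a transcription factor of acute inflammation, rose by 2.05 ± 0.51 and ERRFI1, a brake on the epidermal growth factor receptor, by 1.78 ± 0.39.

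Markers of the other cell types of the wall were called in unequal numbers. Of 20 endothelial markers, 1 rose, 0 fell and 19 were not called, with a median of 0.49 and a summed level that ran from 1085 to 1158 CPM in the sham libraries and from 1249 to 1611 CPM in the IZ libraries. The marker that rose was PECAM1, the endothelial adhesion molecule CD31, by 0.69 ± 0.21, a call lost without IZ replicate 2, IZ replicate 3, sham replicate 2 or sham replicate 3 (adjusted p = 0.0521 to 0.0609). ENG, a receptor of endothelial cells, was at 249, 355 and 229 CPM in the IZ and 304, 278 and 337 in sham. 

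Of 19 fibroblast markers, 5 rose, 2 fell and 12 were not called, with a median of 0.32 (0.09 without IZ replicate 3 to 0.37 without IZ replicate 1), and the number called was 3 without IZ replicate 3 and 4 without sham replicate 1, IZ replicate 1 or sham replicate 2. CTHRC1, a secreted protein of activated fibroblasts, was at 8.29, 8.21 and 20.9 CPM against 1.14, 0.525 and 1.51. PDGFRA, a growth factor receptor of fibroblasts, was at 5.51, 2.72 and 8.69 against 1.08, 0.63 and 0.963. CLEC3B, a plasminogen-binding protein of connective tissue, fell to 79.1, 112 and 76.8 from 227, 160.3 and 399. The groups were apart in all 3. Of 17 smooth muscle and pericyte markers, 1 rose, 3 fell and 13 were not called, a share called near the 27.2% of all genes. The number called was 2 without IZ replicate 2 or sham replicate 3. SMTN, a protein of contractile smooth muscle, fell by 0.69 ± 0.17 and HIGD1B, a pericyte marker, by 1.60 ± 0.39. Of 7 red blood cell markers, 0 rose, 1 fell and 6 were not called, and the haemoglobin gene HBB overlapped at 325, 1167 and 519.5 CPM in the IZ and 278, 380.1 and 411 in sham. No atrial marker was called by edgeR among 9 tested, and neither was any Schwann cell or neuron marker among 9, with 0 and 2 past an unadjusted p of 0.05. In other fits 1 of the nerve markers was called, as lower with only the groups compared and also without IZ replicate 2.

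In the border zone of the same pigs far fewer genes were called against the same sham libraries. There, 162 genes (1.11%) were called, 114 (0.784%) higher and 48 (0.33%) lower. BZ replicate 2 correlated at 0.885 to 0.941 with the other Young Early libraries, against 0.984 between BZ replicates 1 and 3. The count of 162 was not refitted without it, and the part of this spread in the low count was not tested. The median log2 fold change of the unfolded protein response list was 0.62 in the BZ and 1.20 in the IZ. That of the nuclear respiratory genes was 0.17 in the BZ and -1.27 in the IZ. The BZ libraries were divided here. Relative to the sham mean, the mean log2 level of the respiratory list was -0.58, 0.94 and -0.57 in BZ replicates 1, 2 and 3. The sham libraries lay at -0.01, 0.13 and -0.12. BZ replicates 1 and 3 were thus below every sham library, and BZ replicate 2 was above them. The part of BZ replicate 2 in the BZ median was not tested. In a fit over infarcted pigs that blocked on the animal, IZ differed from BZ in 1541 of 14386 genes (10.7%), with 580 (4.03%) higher and 961 (6.68%) lower in the IZ. Among the nuclear respiratory genes, 54 were lower in the IZ than in the BZ and 0 higher. NDUFS3 was at 190.3, 472 and 197 CPM in the 3 BZ libraries, and its paired difference of IZ minus BZ was -1.33 ± 0.18 on the log2 scale (adjusted p = 0.00681, edgeR). MYL2 was at 12593, 51165 and 11278 CPM in the BZ, a paired difference of -1.81 ± 0.29 (adjusted p = 0.00826).

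HSPA5 was at 223, 175 and 251 CPM in the BZ, above each sham library and below each IZ library, with a paired difference of 1.62 ± 0.26 (adjusted p = 0.00826). OSMR was at 6.72, 1.35 and 8.8 CPM in the BZ, a paired difference of 2.02 ± 0.40 (adjusted p = 0.0109). These 4 paired calls held without the pig of each replicate in turn and without the block, and in a fit of the 6 Young Early libraries alone no gene was called, with 2108 at an unadjusted p under 0.05. BZ replicate 2 stood apart from the other libraries of this age and time, with 10.1% mitochondrial counts, and the count of IZ against BZ was 317 without the pig of replicate 2 and 497 without that of replicate 1. The blocked fit also holds 1 Old Late pig whose BZ library carries conflicting animal labels, and with that pig left out the count was 996 and the 4 calls held.

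Pigs operated on at 14 days of age gave a further IZ response at 1 day. In the Old Early IZ against its own sham libraries, 4988 genes (34.3%) were called. The Old Early libraries were all prepared in library batch 2 and the Young Early libraries all in batch 1. Batch and age are therefore not separated between these groups, and their sham pigs differ in age too. The difference between the 2 responses, Old minus Young, was called for 133 genes (0.915%), 78 higher and 55 lower in the Old response. Of these, 53 were among the 3956 genes called in the Young Early IZ. Leaving out IZ replicate 2 of the Young Early pigs gave a count of 679, leaving out IZ replicate 2 of the Old Early pigs gave 1487, and the count was between 0 and 2 without any other of the 12 libraries of these groups. It was 0 with RNA integrity as a covariate in edgeR, where 1342 genes had an unadjusted p under 0.05. HSPB6 changed by -1.56 ± 0.34 in the Young and by 0.53 ± 0.34 in the Old IZ, a difference of 2.08 ± 0.48 (adjusted p = 0.0493). IFIT5 changed by 1.27 ± 0.32 in the Young and by -0.52 ± 0.30 in the Old IZ, a difference of -1.79 ± 0.44 (adjusted p = 0.0493). The calls of a difference for HSPB6 and IFIT5 each held under only 7 of 22 alternatives in method or libraries.

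The response of the Young heart at 1 week differed in many genes from that at 1 day. The Young Late IZ, 1 week after surgery, had 4390 genes (30.2%) called against its own sham libraries. The sham pigs behind the Late response were older than those behind the Early one. The part of changes between these sham groups in the differences below was not tested. The difference of responses, Late minus Early, was called for 1792 genes (12.3%), 890 (6.12%) higher and 902 (6.2%) lower at 1 week, and 740 of these were among the genes called at 1 day. The count was 2691 without Young Late sham replicate 1 and 599 with RNA integrity as a covariate. It was between 677 and 1107 without any 1 of Young Early sham replicates 1 and 3, Young Early IZ replicates 1 and 3, Young Late sham replicates 2 and 3 and Young Late IZ replicates 1 and 2. In the unfolded protein response, 11 of 37 genes had a lower response at 1 week and 0 a higher one. HSPA5 changed by 2.60 ± 0.25 at 1 day and by 0.62 ± 0.24 at 1 week (difference -1.98 ± 0.34, adjusted p = 0.00126). EDEM1 changed by 2.04 ± 0.34 and by -0.46 ± 0.34 (difference -2.51 ± 0.48, adjusted p = 0.00253). TNFRSF11B changed by 6.67 ± 0.87 at 1 day and by 0.55 ± 0.80 at 1 week (difference -6.12 ± 1.21, adjusted p = 0.00307). MYC and DDX21 also had lower responses at 1 week, with differences of -2.64 ± 0.50 (adjusted p = 0.00223) and -3.97 ± 0.92 (adjusted p = 0.00933).

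Macrophage markers had higher responses at 1 week in 15 of 25 and lower ones in 0. C1QB changed by -0.49 ± 0.41 at 1 day, which was not called, and by 3.57 ± 0.45 at 1 week (difference 4.06 ± 0.60, adjusted p = 0.000299). Of the collagen genes, 17 of 43 had a higher response at 1 week. LOXL4 had a lower one, at 3.51 ± 0.37 early and 1.38 ± 0.39 late (difference -2.13 ± 0.53, adjusted p = 0.0132). PDGFRA changed by 2.69 ± 0.61 at 1 day and by -1.45 ± 0.66 at 1 week (difference -4.14 ± 0.90, adjusted p = 0.00629).

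Some metabolic and muscle genes that fell at 1 day had smaller falls or positive values at 1 week. MDH1 changed by -1.66 ± 0.27 at 1 day and by -0.13 ± 0.27 at 1 week (difference 1.54 ± 0.38, adjusted p = 0.0123). CASQ1 changed by -1.36 ± 0.30 and by 0.72 ± 0.30 (difference 2.08 ± 0.42, adjusted p = 0.00354), and HSPB6 by -1.56 ± 0.34 and by 1.48 ± 0.34 (difference 3.04 ± 0.49, adjusted p = 0.000506). Of 40 genes in the text with a called difference between times, 12 held under each of the 22 alternatives. The 11 genes for which adjusted p-values of this difference are given here are all among those 12. They therefore do not stand for the rest. Of the nuclear respiratory genes, 17 of 56 had a higher response at 1 week, but the number was 33 without Young Early IZ replicate 2, 21 without Young Late sham replicate 1, at most 12 without any other of the 12 libraries and 0 without Young Late sham replicate 2. It was 1 with RNA integrity as a covariate.

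**Figure D5:**
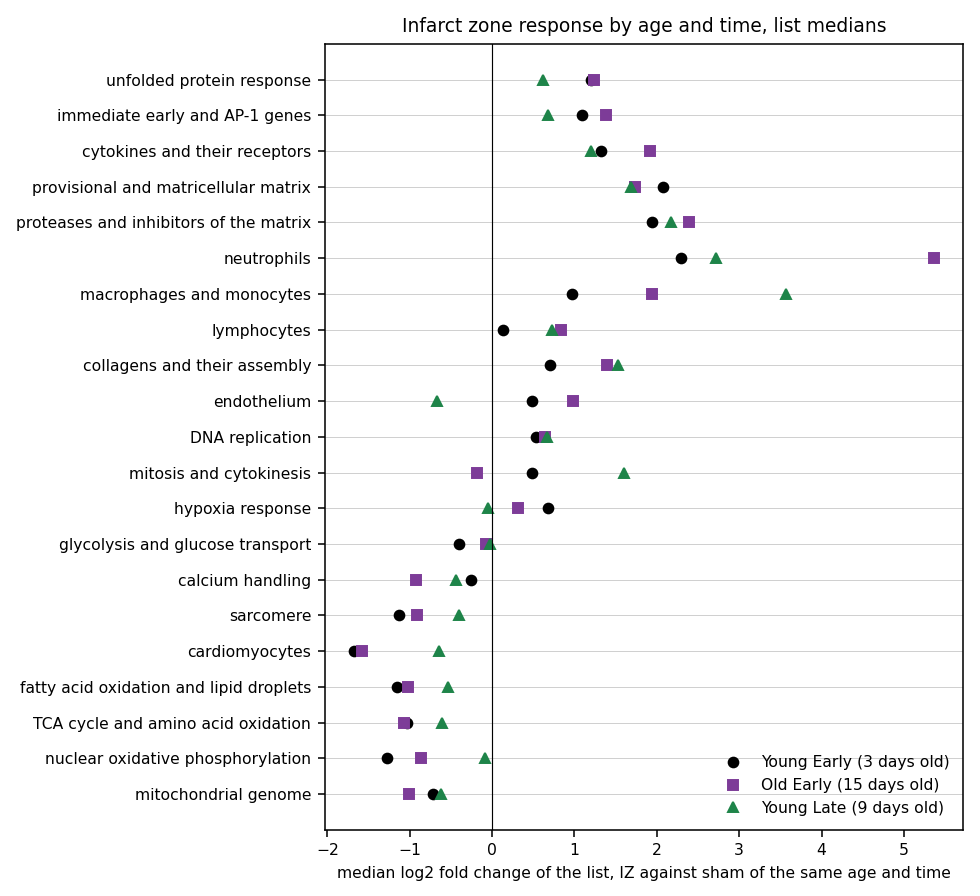
Each row is a gene list, with its median log2 fold change of IZ over the sham libraries of the same age and time for the Young Early, Old Early and Young Late pigs on the horizontal axis. The neutrophil median lies furthest right in the Old Early pigs, and those of macrophages, collagens and mitosis lie furthest right in the Young Late pigs. In edgeR's test of Old minus Young, 0 of the 12 neutrophil markers tested were called.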

How the data were processed

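Whole-tissue RNA sequencing of 36 pig heart libraries in 12 groups of 3 pigs gave a deposited table of read counts per gene, made by the authors with Trimmomatic 0.36, STAR 2.2.1 and featureCounts of Subread 1.5.1, per the submitters' processing notes. The genome build, the annotation release and the strand setting are not given in the sources used here, so reads of overlapping or antisense genes and of near-identical copies cannot be told apart. Groups came from the tissue, age and time in the labels. Each group's libraries come from different pigs, numbered in accession order, so numbers pair no IZ pig with a sham pig.

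Genes were kept by edgeR 4.0.16's filterByExpr (minimum count 10, minimum total 15), run by group over all 36 libraries. The counts were scaled by TMM and fitted by quasi-likelihood over the 12 groups (robust, 24 residual degrees of freedom), in R 4.3.3. The IZ against sham contrast and its differences between ages and between times came from this fit. It shared its estimate of spread over all 36 libraries and took the IZ and BZ libraries of the same pig as independent. In limma-voom with the animal as random block, the consensus correlation within an animal was 0.378. IZ against BZ blocked on the animal named in the sample titles, over the 24 IZ and BZ libraries (8 residual degrees of freedom). For Old Late BZ replicate 3 the title and another label name different animals, and the title was followed. Each SE is the absolute log2 fold change divided by the square root of F. The script was tested on simulated counts.

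The 51 gene lists, with 1242 members tested of 1567, and the comparison itself were chosen with earlier results of these data known. Genes were named by a rule: the 10 largest called rises and the 10 largest falls without overlap (mean log2 CPM 1 or more), the 4 most changed called members of each list (mean log2 CPM 0 or more), the highest-count member of each list that was not called, and a set panel. Of the 165 genes in the text, 146 come from it.

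Alternatives were DESeq2 1.42.0 (size factors, Wald test), limma 3.58.1 (voom, animal as random block), other filters, covariates, thresholds and genes, and each library left out. Legacy edgeR was added after seeing the data. No sequence is shown, and some genes that the rule names are not reported here.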

Additional observations from a re-analysis of the deposited data

Results flagged for a closer look

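The IZ response of the genes below differed between ages or between times by edgeR's test of the difference itself, with an adjusted p under 0.05 over all genes tested. Each value is a difference of log2 fold changes of IZ over sham, with 3 pigs in each of the 4 groups behind it. The sham groups in each difference were of different ages.

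Between ages, Old minus Young at 1 day, the response was higher in the Old pigs for the small heat shock protein gene HSPB6 (2.08), the endothelial receptor gene ENG (1.89) and the basement membrane gene COL4A2 (1.38). It was lower for the interferon-induced gene IFIT5 (-1.79). The potassium channel gene KCND2 had a fitted difference of -7.05, which is no measure of its size because its Young Early sham libraries had no counts. None of these 5 differences passed the threshold under every 1 of the 22 alternatives. HSPB6, ENG, COL4A2 and IFIT5 each passed under 7 of the 22, and KCND2 under 5 of 21.

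Between times, Late minus Early in Young pigs, lower responses at 1 week were seen for stress and folding genes, with HSPA5 at -1.98, EDEM1 at -2.51 and TRIB3 at -2.83. Lower responses were also seen for the pattern recognition gene PTX3 at -3.77 and, among cytokine genes, for TNFRSF11B at -6.12, OSMR at -2.28, CLCF1 at -1.89 and IL13RA1 at -1.26. Among matrix genes the values were -3.63 for THBS1, -2.13 for LOXL4 and -1.31 for P4HA1. Growth signals and their receptors had -4.14 (PDGFRA), -2.23 (MET), -1.98 (BMP4), -1.9 (VEGFA) and -1.84 (ERRFI1). For growth and replication genes the differences were -3.97 for DDX21, -2.64 for MYC and -1.26 for MCM6. Glycolysis and lipid droplet genes had -3.44 (HK2), -2.24 (PFKFB3) and -2.05 (PLIN2).

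Higher responses at 1 week were seen for the macrophage markers TREM2 (4.77), C1QB (4.06) and CD68 (2.46) and for the lymphatic chemokine gene CCL21 (3.31). Matrix and connective tissue genes had 2.36 (MFAP5), 1.97 (COL1A1), 1.43 (CLEC3B) and 1.15 (COL4A2). Muscle genes had 3.04 (HSPB6), 2.08 (CASQ1), 2.0 (MYL2), 1.23 (HAND1) and 1.02 (HRC). Mitochondrial and metabolic genes had 1.97 (UQCR10), 1.59 (FABP4), 1.54 (MDH1), 1.47 (CKMT2) and 1.38 (NDUFS3). Of these 40 differences between times, 12 passed the threshold under each of the 22 alternatives.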

How the results depend on the processing

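For IZ against sham (3956), the count was between 3017 and 4419 under the alternatives in method, scaling, filter, covariate and samples, among them 3579 in limma-voom with a random replicate block by animal, and 2399 with a minimum absolute log2 fold change of 1. Without 1 library it was between 2303 and 3892. DESeq2's size factors gave 2045 rises and 1862 falls. The median over all genes stayed between 0.04 and 0.09 under the other scalings.

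The count for Old minus Young (133) was 5 without the count filter, 5 with legacy edgeR, 5 with preparation batch as a term, 1444 with only the groups compared and 940 with DESeq2. It was 0 in edgeR with RNA integrity as a covariate (1342 genes at an unadjusted p under 0.05) and 0 in limma-voom with the random replicate block (3584 at an unadjusted p under 0.05), and between 0 and 1487 without 1 library. The count for Late minus Early (1792) was 3118 with only the groups compared, 599 with RNA integrity as a covariate, 1169 in limma-voom with the replicate block and between 677 and 2691 without 1 library. For IZ against BZ (1541), the count was 750 with a minimum absolute log2 fold change of 1, 1204 with no replicate block, 0 in edgeR on the 6 Young Early libraries (2108 at an unadjusted p under 0.05), 996 with the Old Late pig of conflicting animal labels left out, an alternative added after seeing the data, and between 317 and 1553 without 1 pig. Where these counts moved, the cause was not tested.

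Of the 165 genes in the text, 130 were called for IZ against sham, and none of these changed direction under any alternative. The call held without each of the 6 libraries for 113 of them, and under each of the 10 other alternatives for 112. With RNA integrity as a covariate 8 calls were lost, and with the random replicate block 5. Genes with few counts in sham, such as IL6 and KCND2, are limited by depth to lower bounds.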
